A study of Bos taurus with 27 samples.

Results

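PFKP (ENSBTAG00000002683), EMP1 (ENSBTAG00000036078) and S100A12 (ENSBTAG00000012638) were followed across the colon of 27 newborn calves. These 3 of the 24616 genes in the count table were chosen by their own log2 fold change and adjusted p in 1 comparison, in which, with sequencing lane in the model, they were higher in calves of multiparous cows first fed colostrum at 12 h than in such calves fed at birth. All 3 passed the filter on low counts, which left 13943 genes to test. Colon tissue was collected from male Holstein calves killed at 51 h of age, and RNA was sequenced from 1 library per calf. Colostrum was first fed immediately after birth (0 h, TRT0), at 6 h (TRT6) or at 12 h (TRT12). Within each treatment, 4 calves were born to primiparous heifers (H) and 5 to multiparous cows (C), giving the groups TRT0_H, TRT0_C, TRT6_H, TRT6_C, TRT12_H and TRT12_C. Every calf had received colostrum by the time of sampling, so no group shows an unfed colon. The feeding time and the 51 h age come from the sample labels, and the parity of the dam comes from the supplementary material of the study. Calves are called by their treatment and a replicate number given in order of deposit, which pairs no calves.

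Total counts per calf lay between 1163791 and 4202593 with a median of 2215402, and a level under 3 counts, or 0.714 to 2.58 CPM, was taken as not shown. Here CPM is the count of a gene relative to all gene counts of its library, in the usual scale. All 3 genes lay far above this level, with 77 to 309 counts per calf for PFKP, 58 to 228 for EMP1 and 31 to 233 for S100A12. Libraries fell into 3 sets by their library identifiers, called lanes 1, 2 and 3 here, and these were spread unevenly over the groups. The identifiers of lanes 1 and 2 share a first number that differs in lane 3, and the labels do not say what it stands for. TRT0_C held 3 calves of lane 2 and 2 of lane 3, and TRT12_C held 3 calves of lane 1 and 2 of lane 2, so lane 2 was the only lane with calves of both. The calves were separate animals, and all p-values below measure the spread between these calves.

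PFKP is the platelet-type subunit of phosphofructokinase, the enzyme of the committed step of glycolysis, in which fructose 6-phosphate is phosphorylated to fructose 1,6-bisphosphate. It works in tetramers with the liver-type (PFKL) and muscle-type (PFKM) subunits. EMP1, epithelial membrane protein 1, is a small tetraspan membrane protein from the family of peripheral myelin protein 22 (PMP22), present in many epithelia. S100A12, also called calgranulin C, is a calcium-binding protein best known from the cytoplasm of neutrophils and monocytes. Once released it binds the receptor for advanced glycation end products and is used as a marker of gut inflammation. In whole tissue, fewer cells of a type and less RNA per cell cannot be told apart.

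PFKP was lowest in TRT0_C and highest in TRT12_C. In TRT0_C its level was 47.3 CPM in replicate 1, 49.4 in replicate 3, 45.1 in replicate 4, 65.6 in replicate 7 and 56.3 in replicate 8. In TRT12_C its level was 97.5 CPM in replicate 2, 53.7 in replicate 5, 104 in replicate 6, 113 in replicate 7 and 69.6 in replicate 8. Replicate 5 of TRT12 fell inside the range of TRT0_C and the other 4 calves of TRT12_C were above it, so the groups overlapped. In TRT0_H the level of PFKP was 70.2 CPM in replicate 2, 42.05 in replicate 5, 53.7 in replicate 6 and 69.1 in replicate 9. In TRT12_H it was 84.4 CPM in replicate 1, 79.7 in replicate 3, 42.1 in replicate 4 and 94.6 in replicate 9. Here 3 of the 4 calves fed at 12 h were above every calf fed at birth, and replicate 4 was as low as the lowest of them. After feeding at 6 h, PFKP was 67.7 CPM in replicate 1, 93.3 in replicate 2, 80.2 in replicate 3 and 60.4 in replicate 7 of TRT6_H. In TRT6_C it was 48.7 CPM in replicate 4, 62.8 in replicate 5, 75.3 in replicate 6, 73.5 in replicate 8 and 70.5 in replicate 9. The highest calf of all for PFKP, TRT12 replicate 7, was born to a cow, and the lowest, TRT0 replicate 5, to a heifer.

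EMP1 had its lowest means in the calves fed at birth. In TRT0_C its level was 37.6 CPM in replicate 1, 48.1 in replicate 3, 51.9 in replicate 4, 46.5 in replicate 7 and 49.4 in replicate 8. In TRT12_C it was 88.1 CPM in replicate 2, 56.6 in replicate 5, 92.2 in replicate 6, 78.9 in replicate 7 and 53.5 in replicate 8. Every calf of TRT12_C was above every calf of TRT0_C, but replicates 5 and 8 lay close to the upper end of TRT0_C. In TRT0_H the level of EMP1 was 54.95 CPM in replicate 2, 39.6 in replicate 5, 37.4 in replicate 6 and 53.2 in replicate 9. In TRT12_H it was 63.9 CPM in replicate 1, 51.8 in replicate 3, 54.3 in replicate 4 and 77.6 in replicate 9. These groups overlapped, with replicates 3 and 4 of TRT12 inside the range of TRT0_H. EMP1 was 68.6 CPM in replicate 1, 45.9 in replicate 2, 76.5 in replicate 3 and 63.5 in replicate 7 of TRT6_H. In TRT6_C it was 52.2 CPM in replicate 4, 59.0 in replicate 5, 44.8 in replicate 6, 45.6 in replicate 8 and 86.8 in replicate 9. Replicate 9, the only TRT6 calf of lane 3, was the highest of TRT6 and set the wide spread of TRT6_C.

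S100A12 varied most of the 3 genes, with a coefficient of variation of 53.1% over the 27 calves against 28.1% for PFKP and 26.8% for EMP1. Sampling of reads alone would give 8.28% to 9.88%. In TRT0_C the level of S100A12 was 42.0 CPM in replicate 1, 22.1 in replicate 3, 26.7 in replicates 4 and 8 and 15.1 in replicate 7. In TRT12_C it was 81.0 CPM in replicate 2, 51.5 in replicate 5, 71.6 in replicate 6, 85.5 in replicate 7 and 72.6 in replicate 8. The groups did not overlap. In TRT0_H its level was 36.4 CPM in replicate 2, 23.5 in replicate 5, 93.8 in replicate 6 and 23.02 in replicate 9. In TRT12_H it was 68.5 CPM in replicate 1, 39.4 in replicate 3, 14.8 in replicate 4 and 113 in replicate 9. TRT12_H thus held both the lowest and the highest calf of the whole study, and its range enclosed that of TRT0_H. S100A12 was 61.8 CPM in replicate 1, 76.7 in replicate 2, 48.9 in replicate 3 and 49.4 in replicate 7 of TRT6_H. In TRT6_C it was 18.4 CPM in replicate 4, 36.9 in replicate 5, 64.1 in replicate 6, 31.3 in replicate 8 and 47.3 in replicate 9.

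**Figure D1:**
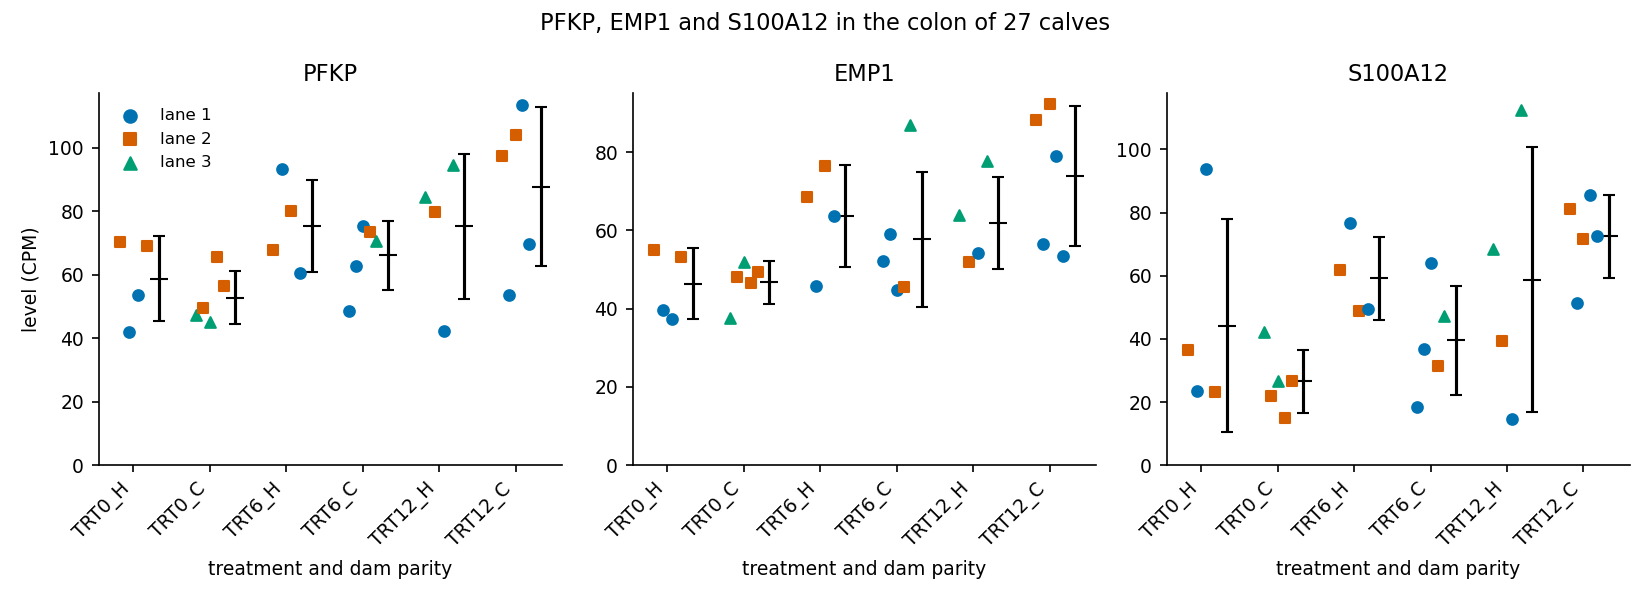
Level of PFKP, EMP1 and S100A12 in CPM (vertical axis, from 0) for each of 27 calves in 6 groups of treatment and dam parity (horizontal axis). Points are calves, coloured and shaped by sequencing lane, and the black mark and bar are the group mean and SD (n = 4 for H, n = 5 for C). The 5 calves of TRT0_C, a group used to choose the genes, lie low and close together in all 3 panels. S100A12 in TRT0_H and TRT12_H spreads over most of the axis.

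The order of the group means was similar for the 3 genes, but most neighbours in it could not be separated. The mean of PFKP went from 52.75 ± 8.31 CPM (SD, n = 5) in TRT0_C through 58.7 ± 13.4 (SD, n = 4) in TRT0_H, 66.1 ± 10.9 (SD, n = 5) in TRT6_C and then 75.2 ± 22.9 (SD, n = 4) in TRT12_H and 75.4 ± 14.5 (SD, n = 4) in TRT6_H to 87.6 ± 25 (SD, n = 5) in TRT12_C. EMP1 was 46.3 ± 9.08 CPM (SD, n = 4) in TRT0_H, 46.7 ± 5.46 (SD, n = 5) in TRT0_C, 57.7 ± 17.3 (SD, n = 5) in TRT6_C and then 61.9 ± 11.7 (SD, n = 4) in TRT12_H, 63.6 ± 13 (SD, n = 4) in TRT6_H and 73.9 ± 17.9 (SD, n = 5) in TRT12_C. S100A12 was 26.5 ± 9.90 CPM (SD, n = 5) in TRT0_C, 39.6 ± 17.2 (SD, n = 5) in TRT6_C, 44.2 ± 33.65 (SD, n = 4) in TRT0_H, 58.8 ± 42.05 (SD, n = 4) in TRT12_H, 59.2 ± 13.1 (SD, n = 4) in TRT6_H and 72.4 ± 13.1 (SD, n = 5) in TRT12_C. Among the neighbours in these orders, the step from TRT6_H to TRT12_C in S100A12 was the only one larger than the SD of both groups, and it involves calves used to choose the genes. TRT12_C was highest for all 3 genes and TRT6_H was next for all 3. All 5 calves of TRT0_C were below the median of the 27 calves in every one of the 3 genes. The medians were 69.1 CPM for PFKP, 53.5 CPM for EMP1 and 47.3 CPM for S100A12. All 3 genes were above these medians together in 6 calves, made up of 3 of 5 calves in TRT12_C, 2 of 4 in TRT12_H and 1 of 4 in TRT6_H. The values of TRT0_C and TRT12_C chose the genes, so the places of their calves against the medians were largely set in advance.

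The comparison of TRT12_C vs. TRT0_C asks whether a late first meal changed the colon of cow-born calves, and it is the comparison that chose the genes, so its values are given as a description and not tested. Without lane in the model, the log2 fold change was 0.79 (SE 0.18) for PFKP, 0.73 (SE 0.19) for EMP1 and 1.49 (SE 0.40) for S100A12. With lane as a covariate, the log2 fold change was 1.004 (SE 0.18) for PFKP, 0.99 (SE 0.18) for EMP1 and 1.92 (SE 0.38) for S100A12. Calls rested on the quasi-likelihood test of edgeR, with p adjusted by the Benjamini-Hochberg method, and asked for an adjusted p of 0.10 or less and a fold change of 1.2 or more. With lane, 4 genes or 0.0287% of the 13943 were called, all higher in TRT12_C. Of these, PFKP had an adjusted p of 0.0600, EMP1 of 0.0615 and S100A12 of 0.0946 in edgeR's quasi-likelihood test, as the values that selected them. The fourth gene, ENSBTAG00000020030, has no symbol in the tables used here and had a log2 fold change of 0.97 (SE 0.19), with an adjusted p of 0.0946 in the same edgeR fit. Just outside lay ENSBTAG00000002121, with a log2 fold change of 0.79 and an edgeR adjusted p of 0.115, ENSBTAG00000026400 with 0.96 and 0.155, and ANXA2, which codes for annexin A2, with 0.63 and 0.158. Without lane, the same test called 0 genes (0%), with 1375 genes at an unadjusted p under 0.05. The edgeR likelihood ratio test called 2 genes and DESeq2 called 4 in the same comparison.

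Lane and single calves moved with these values. Inside lane 2, the one lane with calves of both groups, PFKP was 97.5 and 104 CPM in the 2 calves of TRT12_C against 49.4, 56.3 and 65.6 CPM in the 3 calves of TRT0_C. EMP1 was 88.1 and 92.2 CPM against 46.5, 48.1 and 49.4 CPM. S100A12 was 71.6 and 81.0 CPM against 15.1, 22.1 and 26.7 CPM. None of the 3 genes overlapped between the groups within this lane, but with so few calves the same held for 1610 genes (11.5%). The fitted log2 fold change there was 0.97 for PFKP, 1.06 for EMP1 and 2.01 for S100A12. Over all lanes, EMP1 and S100A12 did not overlap and PFKP did, where 96 genes (0.689%) had every calf of TRT12_C above every calf of TRT0_C. When each of the 10 calves was left out of the fit with lane in turn, all 3 genes stayed past the thresholds in 2 fits, 2 of them in 2 fits, 1 in 1 fit and none in 5 fits. Their log2 fold changes in those fits stayed between 0.92 and 1.10 for PFKP, between 0.90 and 1.03 for EMP1 and between 1.82 and 2.07 for S100A12. Those fits share the calves that chose the genes, so values above 0 were likely from the start. The number of genes called moved far more, from 0 in the 5 fits without TRT0 replicate 1, 3 or 8 or TRT12 replicate 2 or 6 to 270 without TRT12 replicate 7, of which 165 were higher and 105 lower. When lane 3 was dropped and lane kept in the model, the quasi-likelihood test of edgeR called 0 genes, with 1399 at an unadjusted p under 0.05, and none of the 3 passed the thresholds, at 0.92 for PFKP, 0.90 for EMP1 and 1.82 for S100A12. TRT12 replicate 7 was itself the highest calf of TRT12_C for PFKP and S100A12. Beyond these fits, the part of lane and of single calves in these values was not tested.

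**Figure D2:**
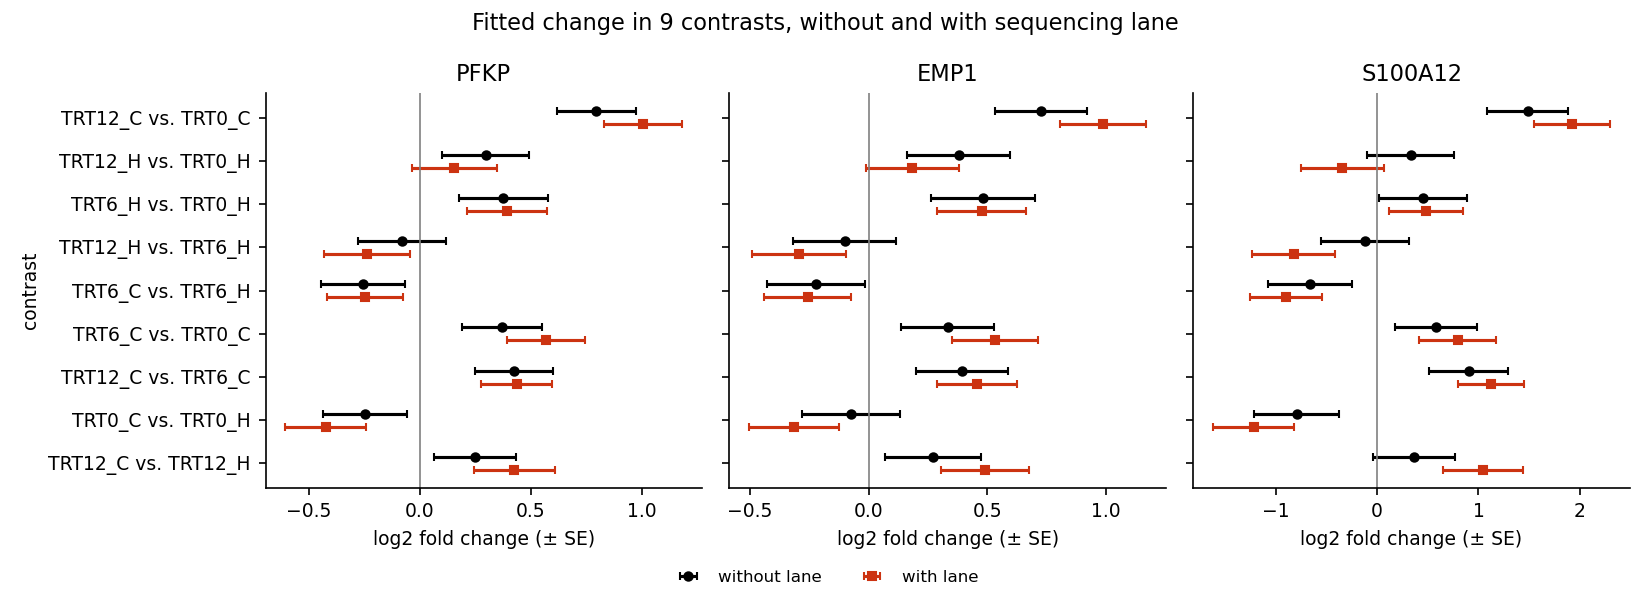
Log2 fold change (horizontal axis, bars ± SE) of PFKP, EMP1 and S100A12 in 9 contrasts (vertical axis, first group against the second), from edgeR fits of all 27 calves without lane (black circles) and with lane (red squares). The values for TRT12_C vs. TRT0_C, the comparison that chose the genes, are the highest in each panel and move further from 0 with lane. Those for TRT12_H vs. TRT0_H move down with lane, below 0 for S100A12.

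The 4 comparisons among calves not used to choose the genes gave no call for any of the 3. The late meal in heifer-born calves, TRT12_H vs. TRT0_H, gave log2 fold changes of 0.30 (SE 0.20) for PFKP, 0.38 (SE 0.22) for EMP1 and 0.33 (SE 0.43) for S100A12, each with an adjusted p of 1 in the quasi-likelihood test of edgeR (Benjamini-Hochberg). The 95% intervals of these changes, taken from the SE, ran from -0.09 to 0.68 for PFKP, from -0.04 to 0.80 for EMP1 and from -0.51 to 1.18 for S100A12. With lane as a covariate, the values were 0.16 (SE 0.19) for PFKP and 0.18 (SE 0.20) for EMP1, and that of S100A12 was -0.34 (SE 0.41). In this comparison lane 3 held 2 calves of TRT12_H and none of TRT0_H. In lane 2, the single calf of TRT12_H had 79.7 CPM of PFKP against 69.1 and 70.2 CPM in TRT0_H, and 39.4 CPM of S100A12 against 23.02 and 36.4 CPM. The same calf had 51.8 CPM of EMP1 against 53.2 and 54.95 CPM. In lane 1, the single calf of TRT12_H had 42.1 CPM of PFKP against 42.05 and 53.7 CPM, and 14.8 CPM of S100A12 against 23.5 and 93.8 CPM. EMP1 was 54.3 CPM in it against 39.6 and 37.4 CPM.

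The meal at 6 h in heifer-born calves, TRT6_H vs. TRT0_H, gave log2 fold changes of 0.38 (SE 0.20) for PFKP, 0.48 (SE 0.22) for EMP1 and 0.45 (SE 0.43) for S100A12. Each again had an adjusted p of 1 in edgeR's quasi-likelihood test, and EMP1 had an unadjusted p of 0.0365. These groups shared lanes 1 and 2 with 2 calves each, and with lane as a covariate the values were 0.39 for PFKP, 0.48 for EMP1 and 0.48 for S100A12. In that fit the unadjusted p of edgeR's quasi-likelihood test was 0.0372 for PFKP, 0.0168 for EMP1 and 0.201 for S100A12, with an adjusted p of 0.9999 for each. EMP1 was 45.9 and 63.5 CPM in the calves of TRT6_H from lane 1 against 39.6 and 37.4 CPM in those of TRT0_H, and 68.6 and 76.5 against 54.95 and 53.2 CPM in lane 2. Both calves of TRT6_H were thus above both of TRT0_H inside each lane, as they were for 331 genes (2.37%), although the groups overlapped when the lanes were put together. PFKP was 93.3 and 60.4 CPM against 42.05 and 53.7 CPM in lane 1, but 67.7 and 80.2 CPM against 70.2 and 69.1 CPM in lane 2, where it overlapped. S100A12 was 61.8 and 48.9 CPM against 36.4 and 23.02 CPM in lane 2, but 76.7 and 49.4 CPM against 23.5 and 93.8 CPM in lane 1, where it overlapped. TRT12_H vs. TRT6_H gave -0.08 (SE 0.20) for PFKP, -0.10 (SE 0.22) for EMP1 and -0.12 (SE 0.43) for S100A12. With lane as a covariate these values were -0.24 (SE 0.19), -0.29 (SE 0.20) and -0.82 (SE 0.41), the last with an unadjusted p of 0.0550 and an adjusted p of 0.9998 in edgeR's quasi-likelihood test, and in lanes 1 and 2 only S100A12 was at -1.21. TRT6_C vs. TRT6_H, which compares the parities after a meal at 6 h, gave -0.25 (SE 0.19) for PFKP, -0.22 (SE 0.21) for EMP1 and -0.66 (SE 0.42) for S100A12, each with an adjusted p of 0.998 in edgeR's quasi-likelihood test. With lane as a covariate, TRT6_C vs. TRT6_H gave -0.25 (SE 0.17) for PFKP, -0.26 (SE 0.18) for EMP1 and -0.90 (SE 0.36) for S100A12. The last had an unadjusted p of 0.0174 and an adjusted p of 0.579 in edgeR's quasi-likelihood test. S100A12 was below the median of TRT6_H in 4 of the 5 calves of TRT6_C.

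Across all genes, the quasi-likelihood test of edgeR made 0 calls (0%) in each of these 4 comparisons, with 496 genes at an unadjusted p under 0.05 in TRT12_H vs. TRT0_H, 467 in TRT6_H vs. TRT0_H, 251 in TRT12_H vs. TRT6_H and 538 in TRT6_C vs. TRT6_H. DESeq2 called 1 gene in TRT12_H vs. TRT0_H and 2 in TRT6_C vs. TRT6_H, and the edgeR likelihood ratio test called 1 in TRT6_H vs. TRT0_H and 1 in TRT6_C vs. TRT6_H, with 0 elsewhere, and PFKP, EMP1 and S100A12 were not called by either. Every calf of the first group lay above every calf of the second for 186 genes (1.33%) in TRT12_H vs. TRT0_H, 137 (0.983%) in TRT6_H vs. TRT0_H, 94 (0.674%) in TRT12_H vs. TRT6_H and 89 (0.638%) in TRT6_C vs. TRT6_H. PFKP, EMP1 and S100A12 were not among them in any of the 4. On CPM of single genes, the lowest of the 12 exact two-sided permutation tests was that of EMP1 in TRT6_H vs. TRT0_H, with a difference in mean of 17.3 CPM, an exact p of 0.0857 and a Benjamini-Hochberg adjusted value of 0.514. With 4 calves against 4, the smallest exact permutation p is 0.0286, and with 5 against 4 it is 0.00794.

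The change from 0 h to 12 h was larger in cow-born than in heifer-born calves by 0.50 (SE 0.26) on the log2 scale for PFKP, 0.35 (SE 0.29) for EMP1 and 1.16 (SE 0.58) for S100A12. With lane in the model the difference between the parities was 0.85 (SE 0.28) for PFKP, 0.80 (SE 0.28) for EMP1 and 2.27 (SE 0.62) for S100A12. These differences rest on the calves that chose the genes and were not tested. Among the comparisons that share calves with TRT0_C or TRT12_C, TRT6_C vs. TRT0_C gave log2 fold changes of 0.37 (SE 0.18) for PFKP, 0.33 (SE 0.20) for EMP1 and 0.58 (SE 0.41) for S100A12. TRT12_C vs. TRT6_C gave 0.42 (SE 0.18) for PFKP, 0.39 (SE 0.19) for EMP1 and 0.90 (SE 0.39) for S100A12. In cow-born calves these values placed the 6 h group between the others for all 3 genes. The genes were chosen as low in TRT0_C against TRT12_C, so another group lying between them was likely from the start. In lane 2 only, EMP1 was at -0.0528 in TRT6_C vs. TRT0_C. In heifer-born calves the mean CPM at 6 h and 12 h differed by less than the spread of either group, with S100A12 at 12 h ranging from 14.8 to 113 CPM. Between the parities at birth feeding, TRT0_C vs. TRT0_H gave -0.25 (SE 0.19) for PFKP, -0.08 (SE 0.21) for EMP1 and -0.79 (SE 0.42) for S100A12, which was -0.13 without TRT0 replicate 6. At 12 h, TRT12_C vs. TRT12_H gave 0.25 (SE 0.19) for PFKP, 0.27 (SE 0.20) for EMP1 and 0.36 (SE 0.40) for S100A12.

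PFKP and S100A12 varied together in calves that did not serve to choose them. Over the 17 calves of TRT0_H, TRT6_H, TRT6_C and TRT12_H, log2(CPM + 1) of the pair had a Pearson r of 0.669 (permutation p = 0.00322, adjusted over 3 pairs 0.00966) and a Spearman rho of 0.593 (permutation p = 0.0142, adjusted 0.0427). After each lane was centred on its mean, r was 0.701. Inside lane 1 it was 0.74 over 8 calves (permutation p = 0.0384, adjusted 0.115) and inside lane 2 it was 0.143 over 6 calves. With totals rescaled by edgeR's TMM factors, r was 0.659 (adjusted permutation p = 0.0124) and rho 0.556 (adjusted 0.0691). Without the 2 calves farthest from the median of PFKP, r was 0.482 (permutation p = 0.0689, adjusted 0.142). Leaving out the extremes of PFKP narrows its range and can lower r in itself, so this does not settle how far the relation rests on those calves. After each group was centred on its mean, r was 0.645 (permutation p = 0.00486, adjusted 0.0146) and rho 0.525 (permutation p = 0.0334, adjusted 0.1). EMP1 did not pass with either gene, with r = 0.393 (permutation p = 0.12, adjusted 0.18) and rho = 0.321 (permutation p = 0.211) with PFKP, and r = 0.199 (permutation p = 0.439, adjusted 0.439) and rho = 0.172 (permutation p = 0.507) with S100A12. Without the 2 farthest calves these r values were 0.279 and 0.446, and with centred lanes they were 0.00446 and -0.0772. Inside lanes 1 and 2, EMP1 had an r of 0.0427 and 0.128 with PFKP, and of -0.349 and 0.726 with S100A12. In the 10 calves of TRT0_C and TRT12_C, PFKP and EMP1 had an r of 0.717 around the group means, against 0.101 for PFKP and S100A12 and 0.0345 for EMP1 and S100A12.

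Glycolysis was examined through 31 listed genes, of which 16 carried a symbol in the tables used here, and all 16 were tested. None was called in TRT12_C vs. TRT0_C, without or with lane. The log2 fold change was above 0 for 14 of the 16 without lane, with a median of 0.36 against -0.01 over all genes tested, and 9 of the 16, all higher in TRT12_C, had an unadjusted p under 0.05, where 9.86% of all genes did. The same calves chose PFKP and S100A12, which went with the summed glycolysis genes in the other calves too. Higher values of these genes here were therefore likely from the start, and the counts are a description only. The 4 genes with the highest counts were ALDOA, which splits fructose 1,6-bisphosphate and so acts directly after phosphofructokinase, PKM, ENO1 and GAPDH. Their log2 fold change was 0.51 (SE 0.17) for ALDOA, 0.40 (SE 0.15) for PKM, 0.52 (SE 0.17) for ENO1 and 0.41 (SE 0.15) for GAPDH, with adjusted p values between 0.427 and 0.440 in edgeR's quasi-likelihood test. PFKL, the liver-type partner of PFKP, had 0.33 (SE 0.20). HK1, the hexokinase that starts the pathway, had 0.48 (SE 0.13) against 0.04 (SE 0.13) for HK2. PFKP itself was at 0.79, as the gene chosen on this comparison. With lane, 15 of the 16 were above 0 with a median of 0.49.

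**Figure D3:**
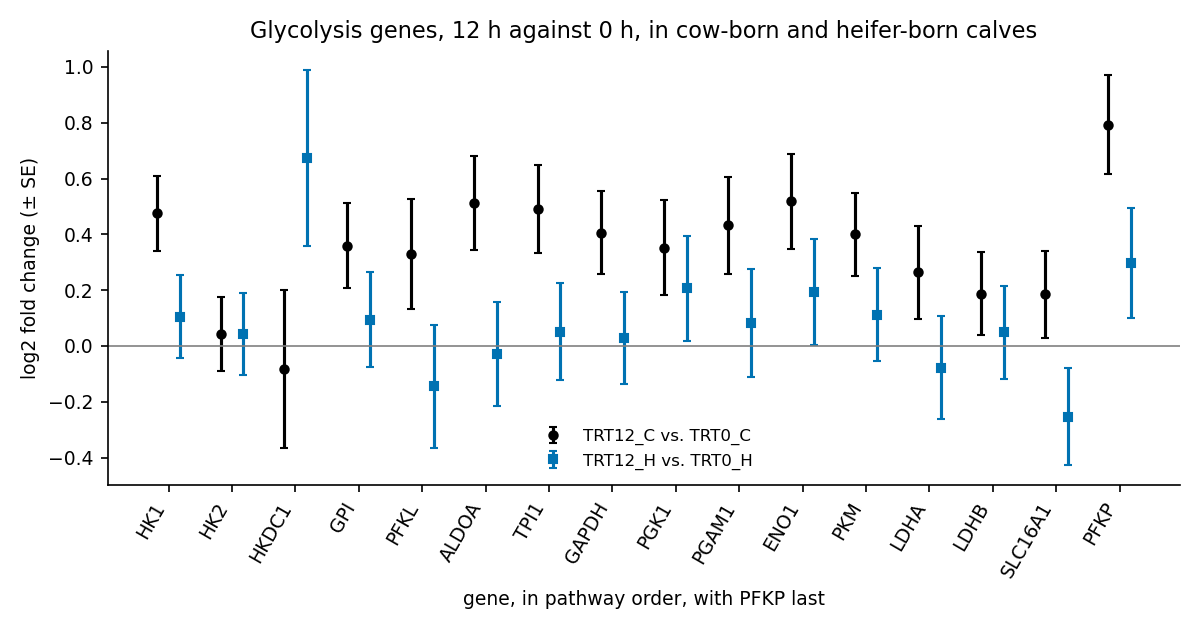
Log2 fold change (vertical axis, bars ± SE, from the edgeR fit without lane) of glycolysis genes in pathway order and of PFKP (horizontal axis; 1 of the 16 genes tested is not shown), in TRT12_C vs. TRT0_C (black circles) and TRT12_H vs. TRT0_H (blue squares). PFKP, chosen on its value in cow-born calves, is at 0.79 there, and most blue squares lie near 0 except HKDC1, a hexokinase-like gene, at 0.67.

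In heifer-born calves the glycolysis genes lay closer to 0 than in the cow-born calves that chose the 3 genes, a difference that was not tested. In TRT12_H vs. TRT0_H, 11 of the 16 were above 0, where 50.6% of all genes were, with a median of 0.05, and 1 had an unadjusted p under 0.05, where 3.56% of all genes did. In TRT6_H vs. TRT0_H, 13 of the 16 were above 0 with a median of 0.15, in TRT12_H vs. TRT6_H 3 of the 16 with a median of -0.09, and in TRT6_C vs. TRT6_H 1 of the 16 with a median of -0.22. In these 4 comparisons edgeR's quasi-likelihood test called 0 of the 16. The summed level of the 16 genes was 2742 ± 205 CPM (SD, n = 5) in TRT0_C and 3372 ± 363 (SD, n = 5) in TRT12_C, against 2952 ± 422 (SD, n = 4) in TRT0_H and 3135 ± 568 (SD, n = 4) in TRT12_H.

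The summed level of the glycolysis genes was set against each of the 3 genes over the 17 calves not used to choose them, together with the summed colon epithelium and smooth muscle markers, which made 9 relations. S100A12, which is no enzyme of glycolysis, followed the glycolysis sum most closely, with r = 0.801 (permutation p = 8e-05, adjusted over 9 relations 0.00072) and rho = 0.755 (permutation p = 0.00064, adjusted 0.00576). Without the 2 calves farthest from the median of the sum, r was 0.738 (adjusted permutation p = 0.0175) and rho 0.675 (adjusted 0.0692). It was 0.788 over 8 calves of lane 1 and 0.425 over 6 calves of lane 2. PFKP had r = 0.712 (permutation p = 0.00138, adjusted 0.00621) and rho = 0.515 (permutation p = 0.0358, adjusted 0.161) with the same sum. For PFKP the relation held in lane 1 (r = 0.755) and was in the other direction in lane 2 (r = -0.509), and without the 2 farthest calves r was 0.528 with an adjusted permutation p of 0.189. EMP1 had r = 0.346 (permutation p = 0.174, adjusted 0.314) and rho = 0.4 (permutation p = 0.114), with an r of -0.0166 in lane 1 and 0.744 in lane 2, and of 0.188 without the 2 farthest calves. None of the 6 relations with the epithelium or smooth muscle sums passed, the closest on CPM being S100A12 with the epithelium sum at r = 0.511 (permutation p = 0.036, adjusted 0.108) and rho = 0.48 (permutation p = 0.054, adjusted 0.162), or r = 0.347 without the 2 farthest calves. How close the relations were depended on the scale. With totals rescaled by edgeR's TMM factors, r with the glycolysis sum was 0.663 for S100A12 and 0.612 for PFKP (adjusted permutation p = 0.0378 for each). For EMP1 it was 0.463 (adjusted permutation p = 0.141). On that scale the closest of the 6 was EMP1 with the epithelium sum, at r = 0.546 (permutation p = 0.0237, adjusted 0.0711), against 0.401 for S100A12. All these values share a library total, so a gene and a sum are not measured apart from each other.

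**Figure D4:**
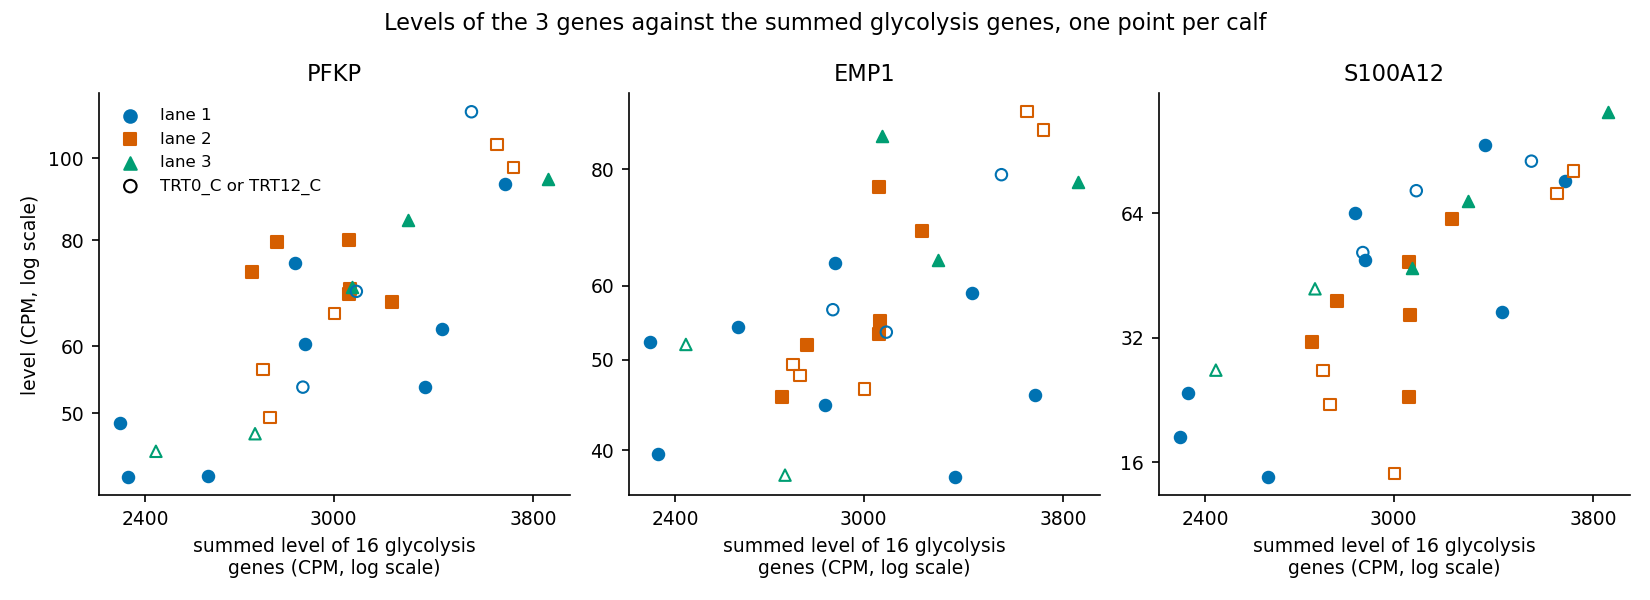
Level of PFKP, EMP1 and S100A12 (vertical axis, CPM, log scale) against the summed level of 16 glycolysis genes (horizontal axis, CPM, log scale), 1 point per calf, coloured and shaped by lane. Filled points are the 17 calves not used to choose the genes and open points the 10 calves of TRT0_C and TRT12_C; S100A12 climbs with the sum (r = 0.801 over the filled points), PFKP less closely (r = 0.712) and EMP1 with wide scatter (r = 0.346).

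Few relatives of the 3 genes could be looked at. Of 20 listed S100 genes and receptors, 3 carried a symbol here. S100A10, the partner of annexin A2, had a log2 fold change of 0.46 (SE 0.19) and an edgeR adjusted p of 0.460 in TRT12_C vs. TRT0_C, and S100A2 had 0.50 (SE 0.29) and 0.579. S100G, the calcium-binding protein of calcium-absorbing epithelium, had -0.55 (SE 0.35) and 0.614. PMP22, the 1 relative of EMP1 with a symbol among 3 listed, had 0.02 (SE 0.15) and an edgeR adjusted p of 0.979. Of 11 listed hypoxia-responsive genes, NDRG1 had 0.09 (SE 0.15), P4HA1 0.13 (SE 0.12) and PDK1 -0.05 (SE 0.26). In TRT12_H vs. TRT0_H the same 3 had -0.33 (SE 0.16), -0.18 (SE 0.14) and -0.37 (SE 0.28). None of these genes was called in any of the comparisons made. Of 14 listed genes of acute inflammation, CXCL2 alone carried a symbol, and it did not pass the filter.

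Markers of the cells in the tissue were looked at beside the values above, and their part in them was not tested. No listed marker of neutrophils (16 genes, S100A8 and S100A9 among them), platelets (4), erythrocytes (5), B and plasma cells (5) or squamous epithelium (8) carried a symbol here, so none was analysed here. The 7 smooth muscle genes, MYH11 and ACTG2 at their head, summed to between 7134 and 11871 CPM in TRT0_C and between 7841 and 14551 CPM in TRT12_C, with a median log2 fold change of 0.15, and the 10 genes of colon epithelium to between 2439 and 3207 CPM and between 3105 and 3751 CPM. Muscle and epithelium were thus present in every calf of these groups. The epithelial median was 0.36 with 9 of 10 genes above 0. The 4 with the highest mean CPM were LGALS4 at 0.18 (SE 0.16), KRT19 at 0.27 (SE 0.22), EPCAM at 0.36 (SE 0.20) and KRT8 at 0.41 (SE 0.20). The highest values of the list were those of the carbonic anhydrases CA1 at 1.34 (SE 0.49) and CA2 at 1.25 (SE 0.31), with edgeR adjusted p values of 0.440 and 0.384, and in TRT12_H vs. TRT0_H they were 1.33 (SE 0.58) and -0.18 (SE 0.35). The 3 goblet cell genes, AGR2, CLCA1 and TFF3, summed to between 598 and 1073 CPM in TRT0_C and between 991 and 1499 CPM in TRT12_C, and all 3 were above 0 with a median of 0.52. The epithelial and goblet sums thus moved in the same direction as PFKP, EMP1 and S100A12 in this comparison, but both sums overlapped between the groups. Also above 0 were 6 of the 7 smooth muscle genes and all 3 endothelial genes, at lower medians of 0.15 and 0.14 against 0.36 and 0.52. In TRT12_H vs. TRT0_H the epithelial median was 0.05 and the goblet median 0.23, and all 7 smooth muscle genes were below 0 with a median of -0.36. Of 10 listed monocyte and macrophage genes, CSF1R had 0.23 (SE 0.19) and TYROBP, at a mean of 4.71 CPM, 0.07 (SE 0.47) in TRT12_C vs. TRT0_C, and their sum ranged from 53.0 to 79.6 CPM in TRT0_C and from 51.3 to 98.0 CPM in TRT12_C. The 3 endothelial genes had a median of 0.14, with 240 to 425 CPM in TRT0_C and 303 to 445 CPM in TRT12_C. CD8A, the 1 T cell gene with a symbol, was at 1.57 to 7.55 CPM in TRT0_C and 0.445 to 3.30 CPM in TRT12_C, which reaches below the level of 3 counts, so no fold is given. None of the markers was called in edgeR's quasi-likelihood test in any comparison.

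The genes most like each of the 3 across all 27 calves were different ones. On log2(CPM + 1), PFKP went with ACTB, the cytoplasmic beta-actin (r = 0.896), FAM120A (0.881), EIF4G1, a scaffold of translation initiation (0.870), COPG1, a subunit of the vesicle coat COPI (0.853), and PKM (0.851). It had an r above 0.7 with 180 genes, against 37 genes for S100A12 and 6 for EMP1. The lowest values for PFKP were with EIF3E, a subunit of a translation initiation factor (-0.754), RIT1 (-0.712) and CCDC152 (-0.709). EMP1 went with TMX2 (r = 0.758), TRAPPC1 (0.735), ENSBTAG00000032954 (0.730), MGAT2, an enzyme of N-glycan synthesis (0.730), and TAGLN2 (0.727), and at the other end with ENSBTAG00000007176 (-0.734), ENSBTAG00000008943 (-0.675) and EIF3E (-0.668). S100A12 went with 2 enzymes of lower glycolysis, ENO1 (r = 0.798) and PGK1 (0.788), then CKMT1B, a mitochondrial creatine kinase (0.779), the chloride channel protein CLIC1 (0.775) and ENSBTAG00000018312 (0.771). Its lowest values were with FREM2 (-0.723), ENSBTAG00000013160 (-0.712) and ENSBTAG00000010551 (-0.711). After each group was centred on its mean, r was 0.877 for PFKP with ACTB, 0.653 for EMP1 with TMX2 and 0.70 for S100A12 with ENO1, and after each lane was centred it was 0.893, 0.763 and 0.798. Among the 13942 other genes, S100A12 ranked 251st in likeness to PFKP and EMP1 ranked 399th, while PFKP ranked 19th in likeness to EMP1 and 65th in likeness to S100A12. All the calves and library totals are shared between these genes, so the values describe these 27 libraries and carry no test.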

How the data were processed

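Colon RNA of 27 calves was sequenced from a TruSeq RNA v2 library per calf, a kit that does not keep the strand. The authors deposited 1 table of read counts for Ensembl genes, which were whole numbers made per their notes with TopHat2 2.1.1 on UMD3.1, SAMtools 1.4 and HTSeq, and no normalization was applied. Reads falling on several genes were left uncounted by the authors, and the strand setting is not given in the sources used here, so reads of a gene and an antisense partner cannot be told apart. All 27 columns were used, and no library was identical to another. Groups follow the labelled feeding time. Dam parity is given neither in the labels nor in the column names, and was taken from the study's supplementary material. Symbols came from the supplementary gene tables of the study, which name 4046 of 24616 identifiers (3716 of those tested), so most genes of several lists were not analysed here.

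CPM took the summed gene counts of a calf as its total. Genes with 1 CPM or more in at least 5 of 9 calves of each treatment were fitted in edgeR 4.0.16 (R 4.3.3) with TMM factors (0.887 to 1.15), 6 group means, the quasi-likelihood test and Benjamini-Hochberg adjustment over 13943 genes. The fits were tested on simulated data. Single values were compared by exact two-sided permutation tests and correlations by permutation with 100000 resamples (Python 3.11.15, numpy 2.4.6, scipy 1.17.1). The floor of 3 counts covers counting error only, and the 95% intervals cover the spread between calves. Genes named are the 3 genes, up to 4 genes of each list with the highest mean CPM, the 5 genes with the highest and 3 with the lowest r, and genes called with lane; HK1, HK2, HKDC1, PFKL, CA1, CA2, ENSBTAG00000002121, ENSBTAG00000026400 and ANXA2 were added after their values were seen, and 1 listed gene is not reported here. The 3 genes and the lists were chosen with earlier results of these data known. The relations with summed lists and the fits inside lanes were also chosen after seeing the data. Alternatives were lane as a covariate, totals without TMM, DESeq2 1.42.0, the likelihood ratio test, no filter, a table without the 10 highest genes, a fit of only the groups compared and each calf left out.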

Additional observations from a re-analysis of the deposited data

Results flagged for a closer look

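One value stood apart from the other calves of its treatment. S100A12 in TRT0 replicate 6, a heifer-born calf of lane 1, was 93.78 CPM (208 counts), and its gap to the next of the 9 calves of TRT0 was 0.657 of their range, above the limit at which Dixon's test marks a value among 9. These 9 include the 5 calves of TRT0_C, a group used to choose the genes and low in S100A12. Among the 4 calves of TRT0_H alone the gap was 0.812 of the range, below the limit for 4, so the value was not marked there. The other 8 calves of TRT0 lay between 15.1 and 42.0 CPM, and the same calf was low for EMP1 (37.4 CPM) and at 53.7 CPM for PFKP. Without it, the log2 fold change of S100A12 was 0.9997 in TRT12_H vs. TRT0_H and 1.12 in TRT6_H vs. TRT0_H, against 0.33 and 0.45 with it, and neither was called. In TRT0_C vs. TRT0_H it was -0.13 without the calf against -0.79 with it. In all, 27 sets of 4, 5 or 9 calves were looked at and 1 was marked, where chance marks about 1 in 20.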

How the results depend on the processing

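All 3 genes had 31 counts or more in every calf, above the floor of 3 counts. Total counts per calf lay between 1163791 and 4202593. The paper reports many more sequenced reads per sample, and the reason for the lower totals was not examined. Whether a greater depth would change the values or the calls was not tested. Other limits are having 4 or 5 calves a group, lanes spread unevenly over the groups and no symbol for most listed immune genes. No paired analysis was possible because the labels give no replicate numbers. The cause of the changes listed here was not tested.

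In TRT12_C vs. TRT0_C, all 3 genes stayed above 0 in every fit made. They were chosen as higher in TRT12_C in these same calves, so this direction was largely set in advance. The log2 fold change of EMP1 was 1.06 in lane 2 only, and that of S100A12 was 1.92 with lane and 2.01 in lane 2 only. Leaving out 1 calf, without or with lane, gave 0.71 to 1.10 for PFKP, 0.62 to 1.03 for EMP1, 1.31 to 2.07 for S100A12 and 0 to 270 genes called, the highest number without TRT12 replicate 7. Against 0 genes called there without lane, 4 were called with lane, 2 by the likelihood ratio test, 1 without the filter, 2 with only the groups compared, 4 by DESeq2 and 405 in lane 2 only, but 0 in lanes 1 and 2 with lane. In TRT12_H vs. TRT0_H, DESeq2 called 1 gene and lane 2 only gave 6. In TRT6_H vs. TRT0_H, the likelihood ratio test called 1. In TRT12_H vs. TRT6_H, lane 2 only gave 3. In TRT6_C vs. TRT6_H, the likelihood ratio test called 1, DESeq2 2 and lane 2 only 2.

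In the 4 comparisons of calves not used to choose the genes, 104 values kept their direction and stayed uncalled and 4 reversed under settings other than leaving out a calf, against 92 and 7 when a calf was left out. The reversed values were -0.0103 for PFKP in TRT12_H vs. TRT0_H in lanes 1 and 2 with lane, -0.19 for EMP1 in the same comparison in lane 2 only, and -0.34 with lane and -0.73 in lanes 1 and 2 with lane for S100A12 in it. Elsewhere, EMP1 turned to -0.0528 in TRT6_C vs. TRT0_C in lane 2 only and to 0.0102 in TRT0_C vs. TRT0_H without TMM. Leaving out 1 calf gave -0.27 to 0.9997 for S100A12 in TRT12_H vs. TRT0_H and, in TRT12_H vs. TRT6_H, -0.24 to 0.11 for PFKP, -0.24 to 0.00961 for EMP1 and -0.72 to 0.22 for S100A12. It gave -0.18 to 0.0137 for EMP1 in TRT0_C vs. TRT0_H. The 24 exact tests on other scales kept their direction and did not pass. The r of PFKP with S100A12 was 0.74 in lane 1, 0.143 in lane 2 and 0.482 without the 2 farthest calves, that of PFKP with the glycolysis sum 0.528 without them, that of EMP1 with S100A12 -0.0772 with centred lanes and -0.349 in lane 1, and that of PFKP with the smooth muscle sum 0.0521 with centred groups.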
